A study of Mus musculus with 16 samples.

Results

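Expression along mouse chromosome 3 was examined in 16 organoid lines of pancreatic ductal adenocarcinoma from 6 mice. The members are the chromosome 3 genes (annotation GENCODE mouse M21, build GRCm38) whose mean over the 16 lines was at least 5 CPM, that is counts per 1000000 counts of the library. This rule kept 512 of the 2884 chromosome 3 genes in the tables, and 10153 of all 55487 genes passed the same minimum. Members were thus selected on measured levels as well as on position, and the chromosome was chosen with its pattern in these lines known. Of the members, 489 are protein-coding and 8 are processed pseudogenes. Just inside the minimum lay Bbs7 (5.15 CPM), Polr3gl (5.16) and Fam198b (5.17), and just outside it Tmem144 (4.98), Vav3 (4.97) and Tspan2 (4.75).

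All lines came from the KPC mouse, a genetic model of pancreatic cancer in which a Cre recombinase active in the pancreas switches on mutant alleles, mutant Trp53 among them, on the C57BL6/J strain per the labels. Tumor and metastasis lines share this background. The labels used here give no age, and they name no separate normal control. Primary tumors gave 7 lines: T3 (mouse 1), T6 (mouse 2), T19 (mouse 3), T23 (mouse 4), T34 (mouse 5), and T69a and T69b (both mouse 6). Metastases gave 9 lines. M1 came from the liver of mouse 1. M3P, M6 and M10 came from the peritoneum of mice 2, 3 and 4. M15 (diaphragm) and M16 (lung) came from mouse 5, and M28 (liver), M29 (diaphragm) and M30 (ovary) from mouse 6. Every peritoneal line is the one metastasis line of its mouse, so site and mouse cannot be told apart for them, and lines of 1 mouse are not independent animals. Organoids were grown in Matrigel, a basement membrane gel, in medium with growth factors and a TGF-beta receptor inhibitor.

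Cancer cells often gain or lose whole chromosomes or arms. Where this happens, RNA from many genes of the affected chromosome tends to shift together by a small amount, while single genes may move far more under their own regulation. Mouse chromosomes have their centromere at one end, so that a chromosome has 1 long arm and a partial change leaves one side of it different from the other. Chromosome 3 carries, among others, Pik3ca (a catalytic subunit of PI3 kinase), Nras, Notch2, the Mecom transcription factor gene, the Gstm glutathione transferases and most of the S100 calcium-binding proteins. DNA was not measured here, so all values are of RNA.

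The start regions of 4 members are shown because these genes moved farthest from the rest of their chromosome between stages: Ptpn22 and Clca3b had the highest fold changes among the called members with the same sign in all 6 mice, Cp and Gstm2 the lowest. Each window is 300 bases from RefSeq (build GRCm38.p6), from 250 bases before to 50 after the start of the gene, written 5' to 3' on the strand of the gene. Capitals mark the pair CG, which reads the same on both strands.
Ptpn22, chr3:103859545-103859844, plus strand: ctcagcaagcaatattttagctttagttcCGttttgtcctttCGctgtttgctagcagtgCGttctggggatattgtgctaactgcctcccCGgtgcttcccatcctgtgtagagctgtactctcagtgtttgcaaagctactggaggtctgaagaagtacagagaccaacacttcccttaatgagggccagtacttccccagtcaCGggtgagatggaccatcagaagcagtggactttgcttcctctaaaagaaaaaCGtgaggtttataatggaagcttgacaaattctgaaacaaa
Clca3b, chr3:144849253-144849552, minus strand: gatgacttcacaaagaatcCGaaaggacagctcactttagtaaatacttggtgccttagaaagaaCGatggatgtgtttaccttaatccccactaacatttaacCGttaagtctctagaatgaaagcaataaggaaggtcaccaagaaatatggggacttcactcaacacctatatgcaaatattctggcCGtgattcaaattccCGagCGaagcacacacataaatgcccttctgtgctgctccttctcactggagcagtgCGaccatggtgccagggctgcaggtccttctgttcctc
Cp, chr3:19956804-19957103, plus strand: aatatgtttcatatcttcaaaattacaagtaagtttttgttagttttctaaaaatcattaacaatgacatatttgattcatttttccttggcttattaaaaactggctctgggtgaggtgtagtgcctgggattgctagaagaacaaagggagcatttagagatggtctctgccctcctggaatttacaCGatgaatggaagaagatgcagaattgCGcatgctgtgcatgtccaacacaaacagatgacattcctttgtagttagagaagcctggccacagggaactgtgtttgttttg
Gstm2, chr3:107986371-107986670, minus strand: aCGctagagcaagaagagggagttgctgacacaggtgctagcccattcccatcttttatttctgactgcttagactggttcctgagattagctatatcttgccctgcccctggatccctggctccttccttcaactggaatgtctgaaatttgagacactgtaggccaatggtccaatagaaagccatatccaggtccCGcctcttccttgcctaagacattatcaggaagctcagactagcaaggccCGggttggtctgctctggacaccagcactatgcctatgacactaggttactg
These windows hold 6, 7, 2 and 3 CG pairs. Over all 32851 windows of this length in the table the median is 7, and 56.4%, 52.1%, 85.9% and 76.7% of windows hold at least as many as the window of Ptpn22, Clca3b, Cp and Gstm2. The counts describe the letters only, and methylation was not measured.

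Library totals ran from 24624420 to 49965492 expected counts, and the median count of a member from 280.5 in M15 to 2324 in M10. At most 1 member was at 0 in any line. A group of 3 genes linked to ribosomal RNA (CT010467.1, AY036118 and Lars2) took 72.7% of M15, 29.9% of T6, 14% to 18.5% of M10, M3P and M6, and 12.3% of M30, against at most 4.16% elsewhere. All 8 duct epithelium markers exceeded 1 CPM in every line. The summed level of 6 fibroblast markers was at most 0.599 CPM, that of 4 endothelial markers at most 0.407 and that of 6 immune markers at most 5.05, with 1 marker of each of these lists at 0 in all lines. The 4 acinar markers summed to at most 1.73 CPM, the 4 hepatocyte markers to at most 112 CPM in tumor and 6.51 CPM in metastasis lines, and the 4 mesothelial markers, of which 1 exceeded 1 CPM in every line, to 164 to 1134 CPM in tumor and 308 to 756 CPM in metastasis lines. The labelled epithelial type thus showed its markers.

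For each line, the log2 CPM of a member (with 0.1 CPM added) was set against its mean over the 6 primary lines without T69a. The median over members was then centred on the same median over 9326 genes of the other 18 autosomes in that line. Centred this way, chromosome 3 was highest in the 3 peritoneal lines. The median was 0.66 in M10, 0.40 in M3P and 0.39 in M6, which are ratios of 1.58, 1.32 and 1.31 on the linear scale. It was 0.18 in M1, 0.10 in M15 and 0.00 in M16. In mouse 6 the metastasis lines lay at -0.10 (M28), -0.12 (M29) and -0.12 (M30). The tumor lines T3, T6, T19, T23, T34 and T69b, which form the reference, lay between -0.03 and 0.06, and T69a lay at -0.14. For scale, a gene whose RNA followed its DNA exactly would lie at 0.58 with 3 copies in place of 2. These medians are descriptions with no test, since the chromosome was chosen for them. In bulk RNA, fewer cells of a type and less RNA per cell cannot be told apart, and the same holds for a shift in a share of the cells and a smaller shift in all of them.

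**Figure D1:**
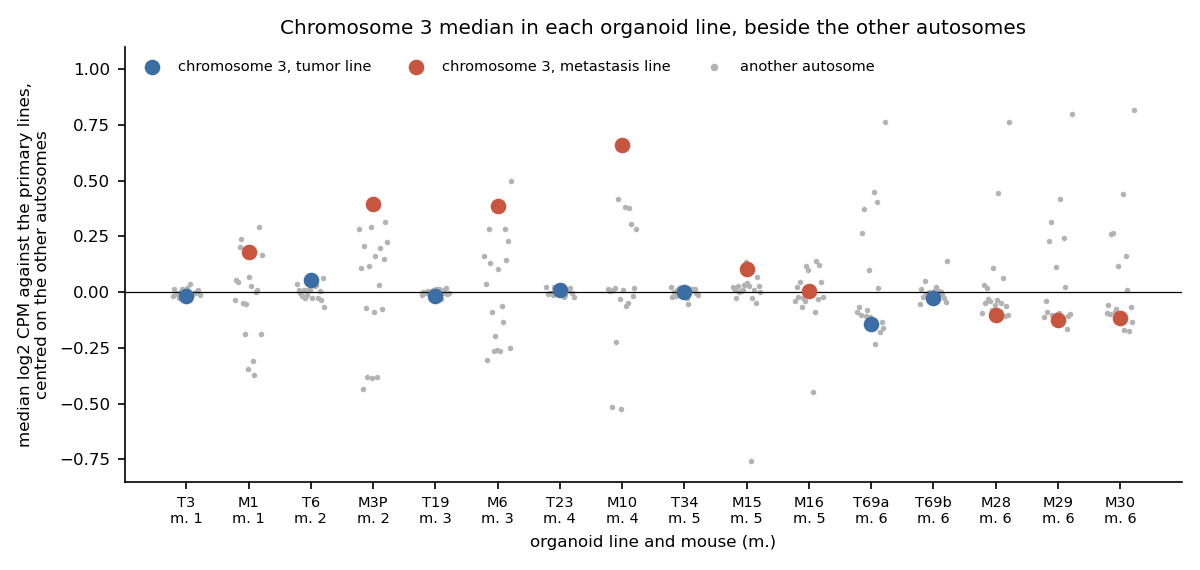
Median log2 CPM of each autosome in each of the 16 organoid lines, against the primary lines without T69a and centred on the other autosomes. Large points are chromosome 3 (blue tumor, red metastasis lines), small grey points the other 18 autosomes. M10, M3P and M6 stand highest for chromosome 3, at 0.66, 0.40 and 0.39, and the 6 reference lines lie between -0.03 and 0.06.

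In the lines with a high median most members lay above 0, as a high median entails. In M10, 457 of 512 members (89.3%) lay above 0, in M6 409 (79.9%), in M3P 401 (78.3%) and in M1 346 (67.6%). In the reference lines the number ran from 231 (45.1%, T3) to 315 (61.5%, T6). In all 3 peritoneal lines at once, 355 members (69.3%) were above 0 and 35 (6.84%) below. Of the other autosomes' genes, whose median is centred at 0 in each line, 25.7% were above and 26.3% below. These shares come from the same values as the medians, so they describe the shift and lend it no support. The quartiles of the members in M10 were 0.37 and 0.93, 114 members exceeded 1 and 55 lay below 0. Their interquartile range was 0.56, against 0.69 for the other autosomes' genes in that line. The latter pools autosomes whose own medians ran from -0.53 to 0.42, so these ranges are not like for like. Chromosome 3 was the highest of 19 autosomes in M10 and M3P, the second in M6 behind chromosome 19 (0.50), and the fourth in M1. Chromosome 3 did not move alone. Chromosomes 15 and 19 were high in the 3 peritoneal lines too (0.38 and 0.28 in M10, 0.20 and 0.22 in M3P, 0.28 and 0.50 in M6). Chromosomes 4 and 10 were low in the same 3 lines (-0.51 and -0.53 in M10, -0.44 and -0.38 in M3P, -0.30 and -0.26 in M6). In M10, the next highest autosome was chromosome 8 at 0.42.

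The size of the value depended on the scale for some lines. Without centring, as a plain log2 CPM difference, the chromosome 3 median was 0.53 in M10, 0.32 in M1, 0.24 in M3P and 0.19 in M6, but -0.46 in T6 and -1.74 in M15, whose totals were those most taken up by ribosomal RNA. In these 2 lines the other autosomes had moved by as much, by -0.52 and -1.84. The share of ribosomal RNA was high in the 3 peritoneal lines as well. It was also 72.7% in M15, 29.9% in T6 and 12.3% in M30, whose centred chromosome 3 medians were 0.10, 0.06 and -0.12. T6 is itself one of the reference lines. The part of ribosomal RNA in these medians was not tested. Members were also split into 3 parts of near-equal number by level, transcript length and GC content. In M10 the median was 0.49, 0.67 and 0.72 from the lowest to the highest part by mean CPM, and 0.66, 0.63 and 0.67 by GC content. In M3P the parts by GC content gave 0.40, 0.42 and 0.32, and in M6 0.32, 0.34 and 0.44. Members on the plus strand (268) and on the minus strand (244) had the same median of 0.66 in M10.

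By stage, metastasis lines had a mean chromosome 3 median of 0.15 ± 0.28 (SD, n = 9). Tumor lines had one of -0.02 ± 0.06 (SD, n = 7). The ranges overlapped (-0.12 to 0.66 and -0.14 to 0.06). As 6 of the 7 tumor lines form the reference, their mean is held near 0 and their spread is narrowed. The values of the 2 stages are thus not like for like. By site, the peritoneal lines averaged 0.48 ± 0.15 (SD, n = 3), the liver lines 0.04 ± 0.20 (SD, n = 2) and the diaphragm lines -0.01 ± 0.16 (SD, n = 2), while lung and ovary had 1 line each (0.00 and -0.12). Within mice, the median of the member-by-member differences between metastasis and tumor was 0.66 in mouse 4 (M10 against T23, 450 members higher in M10), 0.36 in mouse 3 (M6 against T19, 400 members), 0.31 in mouse 2 (M3P against T6, 378 members) and 0.16 in mouse 1 (M1 against T3, 358 members). In mouse 5 it was 0.08 for M15 and -0.01 for M16 against T34, so that 2 metastases of 1 animal differed by 0.11 from each other. In mouse 6 the differences ran from -0.02 to 0.00 against T69a and from -0.10 to -0.06 against T69b. T69a minus T69b, both tumor lines of mouse 6, gave -0.10 as well.

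Whole and partial shifts were told apart with 10 blocks of 51 or 52 members in chromosomal order. A line was called whole where all 10 block medians lay beyond 0.15 on the side of its chromosome median, and partial where at least 2 adjacent blocks did. M10 and M3P were whole. Their block medians ran from 0.45 to 0.77 and from 0.30 to 0.48. M6, M1 and M15 were partial, with 9, 5 and 6 blocks beyond 0.15. None of the tumor lines and none of M16, M28, M29 and M30 met either rule at these settings. With a limit of 0.1, T69a, M28, M29 and M30 were partial as well, on the low side, and with a limit of 0.25 M15 no longer was. The label of M6 rested on block 1 alone (Pex2 to Atp11b, 5560188 to 35856276), where its median was 0.07. With 6 blocks M6 was whole too, and with 15 blocks M10 alone was whole, while M3P, T69a, M29 and M30 joined the partial lines. After the median of other autosomes' genes of like GC content was subtracted, an alternative chosen after seeing the data, M6, M3P and M10 were whole, and block 1 of M6 was at 0.15. The same labels were given to other autosomes: 5 of 18 were whole in M10 and in M3P, 3 in M6, M1 and M30, 4 in T69a and M29, 2 in M28, 1 in M15 and M16, and 0 in each reference line. Partial ones numbered 11 in M6, T69a and M30, 10 in M3P, 9 in M29, and 7 in M1 and M28. They numbered 4 in M16, 3 in M10 and M15, and at most 1 in a reference line.

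**Figure D2:**
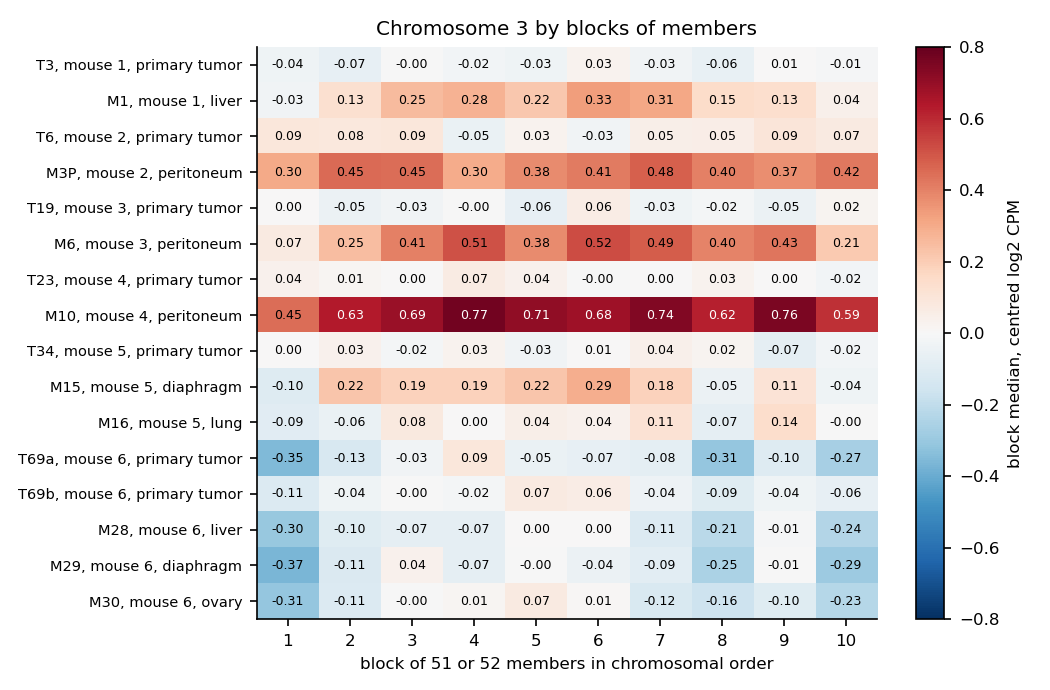
Median centred log2 CPM of the members of each of 10 blocks of chromosome 3 (columns, in chromosomal order) in each of the 16 lines (rows, with mouse and site). All 10 blocks of M10 and M3P are above 0.15, block 1 of M6 is at 0.07, and block 1 is the lowest block of T69a, M28, M29 and M30.

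Along the chromosome, a running median over 51 members stayed above 0 in all 462 windows in M10 (0.44 to 0.81), M3P (0.26 to 0.55) and M6 (0.03 to 0.58), and in 98.5% of windows in M1 (-0.03 to 0.39). In M15 it ran from -0.10 to 0.38. Its low stretches lay at the start, in block 8 (Cd53 to Slc44a3, -0.05) and in block 10 (Mttp to Wls, -0.04). M1 was lowest at both ends, with 0.04 in block 10. The best single split of a partial line fell near the start in each case. In M1 it lay between Zmat3, an RNA-binding zinc finger protein known as a p53 target, and Pik3ca (32366014 and 32397671), with a median of -0.13 in the 42 members before it and 0.21 in the 470 after. In M6 it lay between 4932438A13Rik and Spata5 (37053033 and 37419896), with 0.07 in 62 members and 0.42 in 450. In M15 it lay between Gm43079 and D3Ertd254e (36091446 and 36151017), with -0.12 in 56 members and 0.16 in 456. Each line was fitted with its own best split, so these values describe the split and are no test of it.

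**Figure D3:**
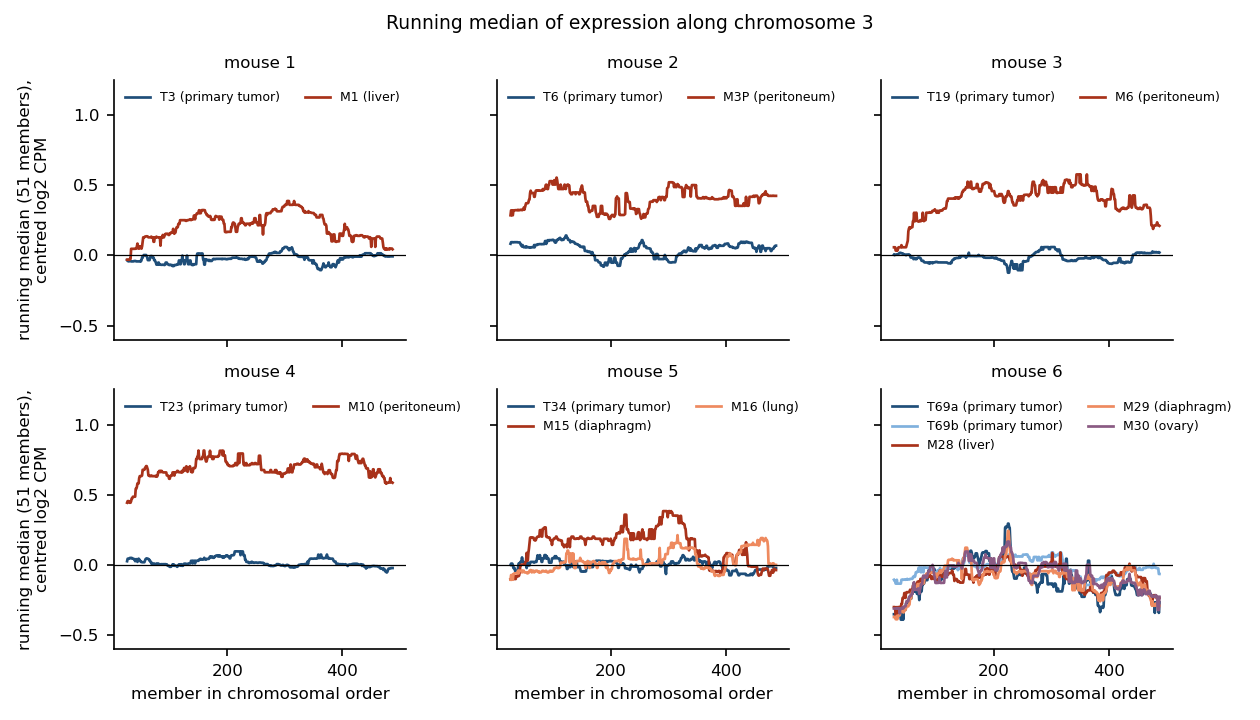
Running median over 51 members of centred log2 CPM (vertical axis) by member in chromosomal order (horizontal axis), 1 panel per mouse and 1 curve per line. Curves of M10, M3P and M6 stay above 0 throughout, M1 and M15 fall towards the first members, and the mouse 6 lines T69a, M28, M29 and M30 dip at both ends.

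The first members were low in lines with and without a high chromosome 3. The 35 members before Mecom had a median of -0.02 in M3P, against 0.41 from Mecom on, of 0.25 against 0.68 in M10 and of 0.01 against 0.40 in M6. It was -0.49 against 0.02 in M16, -0.45 against -0.13 in T69a, -0.55 against -0.09 in M28, -0.43 against -0.10 in M29 and -0.48 against -0.09 in M30. The 6 reference lines had medians between -0.11 (T69b) and 0.10 (T6) for these members. This stretch holds Zfp704, Fabp5, Car2, Cp and Pld1, which were among the 6 called lower between stages here, while 4 were called higher. These are 17.1% lower and 11.4% higher, against 9.92% and 6.59% of all 15573 genes tested. The boundary at Mecom was chosen after the values were seen. In the 4 mouse 6 lines T69a, M28, M29 and M30, blocks 1, 8 and 10 were the lowest, at -0.35, -0.31 and -0.27 in T69a and at -0.37, -0.25 and -0.29 in M29. With GC bins the same blocks were at -0.30, -0.32 and -0.26 in T69a and at -0.27, -0.23 and -0.25 in M29. Chromosome 19 lay between 0.76 and 0.82 in these 4 lines, and chromosomes 1, 3, 16 and 18 lay between -0.18 and -0.09 in all of them.

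Genes were then tested one by one for stage, with edgeR's quasi-likelihood test on all 15573 genes that passed the count filter, with a term for each mouse. All 512 members were tested. Of these, 79 were higher in metastasis lines (15.4%) at an adjusted p under 0.05, where 6.59% of all tested genes were higher. Another 32 members were lower (6.25%), where 9.92% of all tested genes were lower, and 401 were not called. The median log2 fold change was 0.17 over the members and -0.02 over all tested genes, and 370 members (72.3%) had a positive value against 47.9% of all. Among genes with a mean of at least 5 CPM, chromosome 19 lay above chromosome 3, with 21% higher and a median of 0.24. Chromosomes 15 and 5 came next after chromosome 3, with 13.5% and 12.7% higher. As the chromosome was chosen for its shift in these lines, these counts describe it and lend it no support. Of the called members, 74 higher and 27 lower ones had the same sign in all 6 mice. The higher ones were mostly small changes: their median was 0.66 and 58 of 79 lay under 1. The lower ones had a median of -1.85 and 22 of 32 were at -1 or below.

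When every chromosome was given the same median in every line, 49 members were higher and 58 lower. All 49 were among the 79, and all 32 were among the 58. On log2(TPM + 1) with limma the split was 20 higher and 25 lower. Without M15 and T6, the libraries richest in ribosomal RNA, 22 were higher and 19 lower. Leaving out T6 also takes M3P, the other line of its mouse, out of the stage contrast. The number of higher members was 40 without T34, 42 without T19 or M6, 44 without T6 or M3P, and 50 without T3 or M1. It was 51 without T23 and 52 without M10, and the number of lower ones fell to 20 without T34. Each of these lines is the only tumor or only metastasis line of its mouse. With a term per mouse, leaving it out takes that mouse out of the stage contrast, so these counts describe mice left out. Higher members lay all along the chromosome, from 4 in block 2 to 12 in block 3, and the median log2 fold change was lowest in block 1 (-0.01, with 6 higher and 7 lower) and block 10 (0.07, 5 and 5). By mouse, 0 members passed the F test of the mouse terms in edgeR, where 0.154% of all tested genes passed, 134 had an unadjusted p under 0.05, and DESeq2 called 85.

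**Figure D4:**
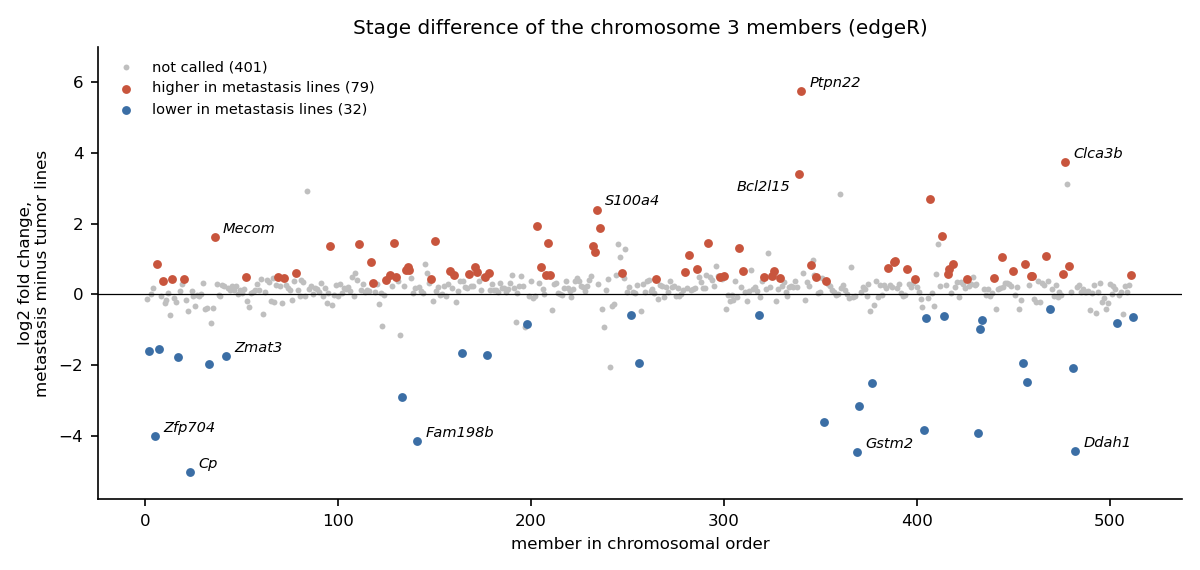
Log2 fold change between metastasis and tumor lines (edgeR, vertical axis) of the 512 members in chromosomal order (horizontal axis). Red points are the 79 members called higher, blue points the 32 called lower and grey points the 401 not called; most red points lie under 1 and most blue points below -1.

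Levels of all 16 lines did not overlap between stages in 9 members (1.76%), where this held for 1.12% of all tested genes. Of these, 8 were higher in metastasis lines: Fam160a1, Hist2h2be, Pias3, Ptpn22, Fam102b, Papss1, Npnt and Odf2l. Gstm2 was the lower one. Hist2h2be, Pias3, Fam102b, Papss1, Npnt and Odf2l are named after their values were seen. Pias3, an inhibitor of STAT signalling, reached 5.28 to 14.5 CPM in tumor lines, against 15.1 to 22.8 in metastasis lines, and T69a was the highest tumor line. Npnt, which encodes the matrix protein nephronectin, reached 46.8 to 91.8 CPM in tumor lines, against 94.8 to 214 in metastasis lines.

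The largest rise was that of Ptpn22, a tyrosine phosphatase best known from lymphocytes. Its level on TMM-scaled library sizes was lowest at 0 (T3, T6 and T23), with a median of 0.0385 and a maximum of 0.627 CPM over the 7 tumor lines, and 2.02, 8.58 and 44.5 CPM over the 9 metastasis lines. Every metastasis line was above every tumor line. The log2 fold change was 5.76 (SE 1.17, edgeR adjusted p = 0.0095), a fitted value that rests in part on tumor lines with no counts. Bcl2l15, a Bcl-2 family gene, ends 5177 bases before Ptpn22 begins on the same strand, and was also higher (log2 fold change 3.40, SE 1.00, edgeR adjusted p = 0.0384). It was highest in M6 (62.0 CPM) and M1 (38.4 CPM), as was Ptpn22 (44.5 and 38.2 CPM). Its groups overlapped, from 0.135 to 1.11 CPM in tumor and from 0.788 to 62.0 CPM in metastasis lines. The call of Bcl2l15 was lost in 12 of 24 alternatives.

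Clca3b, of a family that regulates calcium-activated chloride channels, had 0.101, 0.556 and 1.58 CPM (lowest, median, highest) in tumor and 1.18, 7.97 and 71.9 CPM in metastasis lines. The log2 fold change was 3.74 (SE 0.98, edgeR adjusted p = 0.0256), and the call was lost in 8 of 24 alternatives. Reads of Clca3b may be shared with its near copies on the same chromosome. S100a4, a calcium-binding protein linked to cell motility, had 1.61, 3.14 and 10.4 CPM in tumor and 4.54, 29.5 and 43.5 CPM in metastasis lines, with a log2 fold change of 2.40 (SE 0.40, edgeR adjusted p = 0.00466). M29 (4.54 CPM) and M28 (9.22 CPM) were its lowest metastasis lines, and T23 (10.4 CPM) its highest tumor line. Tmem56 rose by a log2 fold change of 2.69 and ranged from 3.47 to 7.45 CPM in tumor and from 5.91 to 132 CPM in metastasis lines. S100a7a (1.87) and Fam160a1 (1.496) rose as well.

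In 4 of the members that rose, put together after their values were seen, T69a lay within the range of the metastasis lines. The same held for S100a4, S100a14, S100a11, Slc16a1, Lmna and Capza1, so it is not particular to these 4. Mecom, whose product EVI1 is a transcription regulator, had 72.8 CPM in T69a against 9.83 to 26.3 CPM in the other 6 tumor lines, and 35.8 to 126 CPM in the metastasis lines. M10 (126 CPM) and M3P (112 CPM) were the highest. Its log2 fold change was 1.61 (SE 0.31, edgeR adjusted p = 0.00783). Shc1, an adaptor of receptor tyrosine kinases, had 247 CPM in T69a, 69.1 to 104 CPM in the other tumor lines, and 182 to 389 CPM in the metastasis lines. Arhgap29, a GTPase-activating protein, had 56.7 CPM in T69a, 9.32 to 20.2 CPM in the other tumor lines, and 39.9 to 84.2 CPM in the metastasis lines. Efna3, an ephrin ligand, had 23.9 CPM in T69a, close to the 21.2 to 27.6 CPM of the mouse 6 metastasis lines, and at most 8.26 CPM in any line of another mouse.

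**Figure D5:**
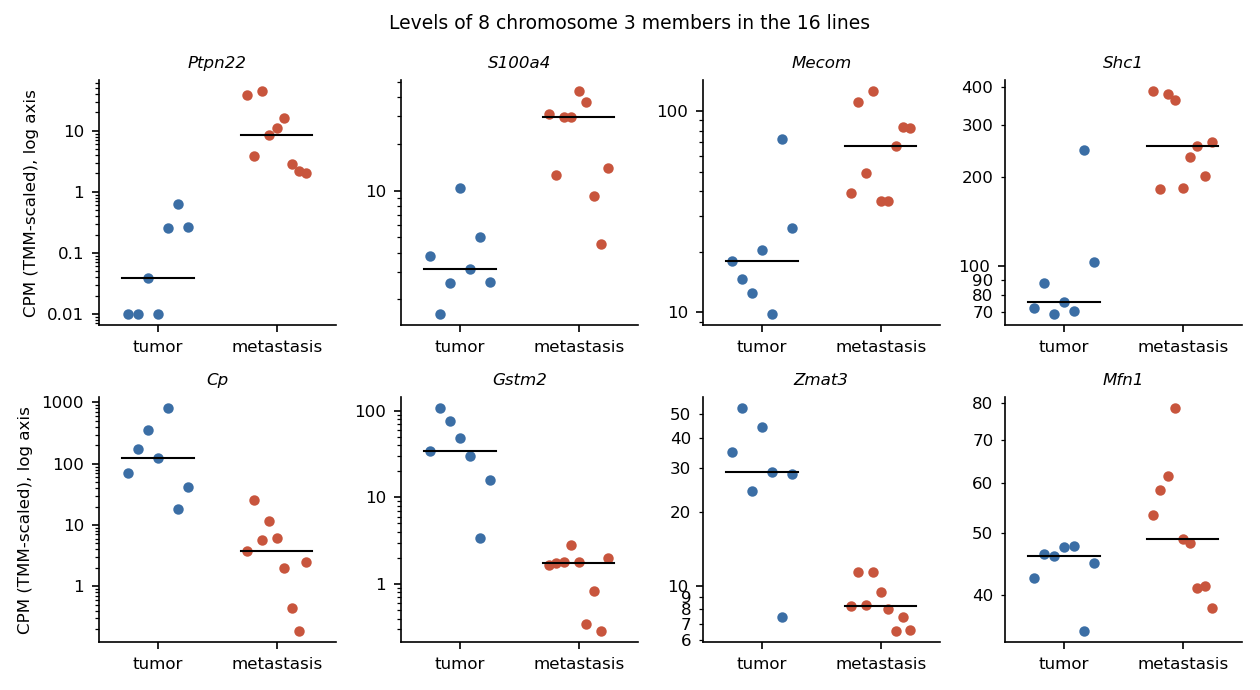
Levels of 8 members (CPM on TMM-scaled library sizes, log axis; values at 0 are drawn at 0.01) in 7 tumor lines (blue) and 9 metastasis lines (red), with the median as a bar. Ptpn22 and Gstm2 do not overlap between stages, T69a is the tumor line nearest the metastasis lines for Mecom, Shc1 and Zmat3, and Mfn1 overlaps widely.

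The largest fall was that of Cp, which encodes ceruloplasmin, the copper-carrying ferroxidase. Tumor lines had 18.5, 123 and 801 CPM (lowest, median, highest) and metastasis lines 0.183, 3.78 and 25.4 CPM. The groups overlapped only through T69a (18.5 CPM) and M3P (25.4 CPM). The log2 fold change was -5.02 (SE 0.68, edgeR adjusted p = 0.00188). In mouse 2, Cp had 25.4 CPM in M3P, where the chromosome 3 median was 0.40, against 177 CPM in T6. Gstm2, a mu-class glutathione transferase, had 3.41, 34.3 and 106 CPM in tumor and 0.285, 1.74 and 2.83 CPM in metastasis lines, and no line crossed over (log2 fold change -4.47, SE 0.54, edgeR adjusted p = 0.000909). Its neighbour Gstm1 fell by 3.17 on the log2 scale (SE 0.59, edgeR adjusted p = 0.00659). In M10, Gstm1 had 223 CPM, more than its tumor partner T23 with 190 CPM, while the other 8 metastasis lines had 3.97 to 24.5 CPM. Reads of the Gstm genes may be shared among them, since they resemble each other.

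Ddah1, which degrades methylated arginines, had 8.61, 98.3 and 147 CPM in tumor and 0.119, 4.88 and 25 CPM in metastasis lines. It was lowest in M10 (0.119 CPM), where the chromosome was highest. Inka2, an inhibitor of the kinase Pak4, had the lowest adjusted p of all members (0.000532, edgeR), with a log2 fold change of -3.60 (SE 0.39). T69a had 0.980 CPM and the other tumor lines 10.2 to 18.3 CPM, against 0.428 to 1.62 CPM in metastasis lines. Zmat3 showed the same order, with 7.47 CPM in T69a, 24.3 to 52.6 CPM in the other tumor lines, and 6.52 to 11.4 CPM in the metastasis lines. Psrc1, a microtubule-associated protein, had 8.22 CPM in T69a, 70.2 to 103 CPM in the others and 4.87 to 25.3 CPM in metastasis lines. Fam198b (-4.15), Zfp704 (-4.01), Cfi (-3.93), which encodes complement factor I, Palmd (-3.83) and Ddit4l (-2.49), an inhibitor of mTOR signalling, fell as well.

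Lists of chromosome 3 genes by role, drawn up with earlier results of these data known, were compared with the chromosome as a whole. Names of called list genes other than the 4 with the highest mean CPM were taken after their values were seen. Of 22 growth signalling genes and oncogenes, 5 rose (Mecom, Hdgf, Efna3, Shc1 and Rap1a) and Pld1, a phospholipase D, fell. The list had 22.7% higher and 4.55% lower, against 15.4% and 6.25% of all members and 6.59% and 9.92% of all tested genes. The median of the list was 0.23 against 0.17 for all members. Hdgf, a growth factor that binds heparin, had 196 to 262 CPM in tumor and 242 to 427 CPM in metastasis lines (log2 fold change 0.53, SE 0.11, edgeR adjusted p = 0.0104), highest in M3P and M6 (427 and 407 CPM). Pik3ca was not called (0.17, SE 0.10, edgeR adjusted p = 0.259), though it had its highest level in M10, 119 CPM against 51.7 to 86.7 CPM in all other lines. With chromosome medians set equal its value was -0.03. Ect2, a guanine nucleotide exchange factor that acts in cytokinesis, was likewise not called (0.33, edgeR adjusted p = 0.115), with 280 CPM in M3P and 271 CPM in M10, and Gnai3 had 398 CPM in M10 and 344 CPM in M6 against at most 285 CPM elsewhere.

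Of 17 cell cycle and DNA replication genes, 8 rose and 1 fell (Casp6, a caspase that the list also holds), with a list median of 0.31. These are 47.1% higher and 5.88% lower, against 6.59% and 9.92% of all tested genes and 15.4% and 6.25% of all members. The 8 were Plk4, Ccnl1, Smc4, Cks1b, Cdc14a, Sass6, Papss1 and Cenpe. The list is loose, as it holds Papss1, which makes a sulfate donor, and Ccnl1, a cyclin that acts in splicing. The share of higher genes counts both. Plk4 and Sass6 act in centriole duplication, and Cenpe is a kinetochore motor. Smc4, a condensin subunit, had 156 to 217 CPM in tumor and 206 to 330 CPM in metastasis lines, highest in M10 (log2 fold change 0.41, SE 0.11, edgeR adjusted p = 0.0293). With chromosome medians set equal, Smc4 had 0.21 and was no longer called, as in 8 of 24 alternatives in all. Ccna2, cyclin A, was not called (0.44, SE 0.15, edgeR adjusted p = 0.0609), with 165 to 268 CPM in tumor and 198 to 374 CPM in metastasis lines. Of 16 tumor suppressor and cell death genes, 4 rose (Tiparp, Fbxw7, Vangl1 and Bcar3) and Casp6 fell. These are 25% higher and 6.25% lower, against 15.4% and 6.25% of all members and 6.59% and 9.92% of all tested genes. Mcl1, which blocks cell death, had 176 to 262 CPM in tumor and 172 to 246 CPM in metastasis lines (-0.06, edgeR adjusted p = 0.729). In M10, where the chromosome was at 0.66, Mcl1 had 246 CPM against 211 CPM in T23.

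The S100 and epidermal differentiation cluster stands close together on the chromosome. Of its 15 members 5 rose (S100a14, S100a16, S100a4, S100a7a and S100a11) and Tuft1 fell. Shares were 33.3% higher and 6.67% lower, against 15.4% and 6.25% of all members and 6.59% and 9.92% of all tested genes. The calls of S100a11 and S100a7a were lost in 9 and 11 of 24 alternatives. The list median was 0.45. In the M10 line 14 of 15 lay above 0 with a median of 1.13, and in M6 11 of 15 with a median of 1.01, while in M3P the median was 0.05 with 8 of 15 above 0. S100a14 had 57.4, 154 and 319 CPM in tumor and 266, 417 and 557 CPM in metastasis lines (log2 fold change 1.37, SE 0.30, edgeR adjusted p = 0.0128), again with T69a as the highest tumor line. S100a6 had 802 to 1375 CPM in tumor and 921 to 1778 CPM in metastasis lines and was not called (0.28, edgeR adjusted p = 0.126). S100a10 was not called either (0.45, edgeR adjusted p = 0.0717).

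Of 13 epithelial and secreted proteins, 4 fell (Fabp5, Car2, Cp and Ccn1, 30.8%), Tm4sf1 rose (7.69%) and 8 were not called. Of all members, 6.25% were lower and 15.4% higher, and of all tested genes 9.92% and 6.59%. The list median was -0.23, with values from -5.02 to 3.11, 5 of them positive. Fabp5, a fatty acid binding protein, had 201, 496 and 639 CPM in tumor and 37.4, 173 and 325 CPM in metastasis lines (log2 fold change -1.56, SE 0.32, edgeR adjusted p = 0.00955). The mucin gene Muc1 had 92.8 to 270 CPM in tumor and 18.5 to 283 CPM in metastasis lines and was not called (-0.91, SE 0.40, edgeR adjusted p = 0.133), and M10 was its highest line. Of 8 genes of glutathione, cystine and one-carbon metabolism, 3 fell (Gstm2, Gstm1 and Gclm, 37.5%) and 0 rose. Gclm, the modifier subunit of the enzyme that starts glutathione synthesis, had 213 CPM in M10, the highest of all lines, and 46.2 to 97.1 CPM in the other metastasis lines. Its call was lost in 16 of 24 alternatives. Slc7a11, the cystine importer, was also highest in M10 (659 CPM) and was not called (0.37, SE 0.49, edgeR adjusted p = 0.632). In M10, 7 of these 8 genes lay above 0, with a median of 0.89, whereas in M28 1 of 8 did, with a median of -1.06.

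Lists with housekeeping roles covered the ribosome, the proteasome with chaperones and splicing, and chromatin with transcription. Of all members, 15.4% were higher and 6.25% lower, and of all tested genes 6.59% and 9.92%. Of 9 ribosome genes, 0 were called by edgeR and 0 by DESeq2, 1 had an unadjusted p under 0.05 in edgeR, and the list median was 0.09. All 9 were above 0 in M10, with a median of 0.60, and 7 of 9 in both M3P and M6, with 0.29 each, but 1 of 9 in M15, with -0.36, where the chromosome was at 0.10. Rps3a1 had 844 to 888 CPM in the 7 tumor lines, 1664 CPM in M10 and 787 to 1122 CPM in the other metastasis lines. All 13 genes of proteasome, chaperones and splicing were above 0 in each of M1, M3P, M6 and M10, with medians of 0.36, 0.47, 0.50 and 0.82, and 1 (Prpf3, 7.69%) was called higher. Psmb4, a proteasome subunit, had 288 CPM in M10, 260 CPM in M6 and 131 to 170 CPM in tumor lines. All 20 chromatin and transcription genes were above 0 in M10 (median 0.60), but 17 of 20 or more lay below 0 in each of T69a, M28, M29 and M30, with medians from -0.35 to -0.30. Between stages 2 of these rose (Mef2d and Larp7, 10%) and Zfp697 fell (5%). DESeq2 called 4 of the 13 proteasome, chaperone and splicing genes and 7 of the 20 chromatin and transcription genes. In each of these 2 lists, 7 genes had an unadjusted p under 0.05 in edgeR.

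Of 19 genes of lipid and energy metabolism, 1 was called (higher, 5.26%). Slc16a1, a lactate transporter, had 139, 181 and 256 CPM in tumor and 244, 364 and 407 CPM in metastasis lines (log2 fold change 0.82, SE 0.17, edgeR adjusted p = 0.00933). Of 22 genes of microtubules, membrane traffic and the nuclear envelope, 4 rose (Arhgef26, Lmna, Rab25 and Capza1) and Snx7 fell. These are 18.2% higher and 4.55% lower, against 15.4% and 6.25% of all members and 6.59% and 9.92% of all tested genes. Lmna, lamin A/C, had 212 to 348 CPM in tumor and 283 to 512 CPM in metastasis lines (log2 fold change 0.50, SE 0.14, edgeR adjusted p = 0.0292), highest in M28, where the chromosome median was -0.10. With chromosome medians set equal its edgeR adjusted p was 0.175. The calls of Lmna and Capza1 were lost in 9 and 11 of 24 alternatives. The guanylate binding and interferon list held only 3 members (Ptpn22, Isg20l2 and Adar), since 11 listed genes were under the minimum.

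Members differed in how closely they kept to their chromosome. The SD over 16 lines of a member's centred log2 level minus the chromosome 3 median of the line had a median of 0.28 and a maximum of 3.28 (Cp). Among members with a mean of at least 20 CPM, the 5 steadiest were Bcas2 (a splicing factor), Mfn1 (a mitochondrial fusion protein), Man1a2 (a Golgi mannosidase), Pkn2 (a kinase) and Elf2 (a transcription factor), with SDs between 0.08 and 0.09. Mfn1 had 35.1 to 47.8 CPM in tumor lines, 78.4 CPM in M10, 61.5 CPM in M6, 58.3 CPM in M3P, 53.4 CPM in M1 and 38.1 to 48.9 CPM in the other metastasis lines. M10 was thus its highest line and M6, M3P and M1 the next. The steadiest members were picked for keeping close to the chromosome 3 median, so this order follows from the choice. Bcas2 had 100.4 CPM in M10 and 50.6 to 69.2 CPM in tumor lines. Their log2 fold changes between stages lay between 0.13 and 0.25, and their edgeR adjusted p values between 0.0909 and 0.328. The 5 most variable were Cp, Ddah1, Gstm2, Bche and Gstm1, with SDs between 2.24 and 3.28. Bche, butyrylcholinesterase, had 1.82 CPM in T69a, 19.9 to 89.2 CPM in the other tumor lines, and 0.521 to 27.6 CPM in the metastasis lines, where M10 and M3P were the highest (27.6 and 24.7 CPM). At the 2 ends of the chromosome, Pex2, a peroxisome assembly protein, was not called (-0.13, edgeR adjusted p = 0.394), and Wls, which carries Wnt proteins to the cell surface, fell by 0.64 on the log2 scale (SE 0.18, edgeR adjusted p = 0.0322), a call lost in 12 of 24 alternatives.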

How the data were processed

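RNA of 16 organoid lines was depleted of ribosomal RNA and made into stranded libraries, per the labels' protocols. Per the submitters' processing notes, reads were handled with FastQC 0.11.8, STAR 2.6.0c and RSEM 1.3.1 on GRCm38.p6. The strand setting of the counting is not given in the sources used here, so overlapping genes on opposite strands (Magi3 and Phtf1 among those near named members) and near copies such as the Gstm, Clca and ribosomal protein genes are uncertain. Per the file headers, the authors deposited expected counts and TPM per gene. Of 55487 gene identifiers, 55394 were matched to GENCODE M21 without their version.

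The expected counts were divided by the library total for the chromosome medians, and rounded to whole numbers for edgeR 4.0.16 (TMM, filterByExpr by stage, a term per mouse, quasi-likelihood test, R 4.3.3) with Benjamini-Hochberg adjustment over all 15573 genes tested and a threshold of 0.05. CPM of single genes use TMM-scaled library sizes. Pairing comes from the mouse labels: lines of the same number are from the same animal, so the fit holds a mouse term. P values partly measure the spread between lines of 1 mouse. DESeq2 1.42.0 and limma 3.58.1 (on the deposited TPM as log2(TPM + 1)) were alternatives, with other scalings, filters, references, pseudocounts and block rules, and each line left out. The scripts were tested on simulated data.

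The members, lists and rules were chosen with earlier results of these data known. Genes were named by rule: up to 10 highest and 10 lowest fold changes among called members with the same sign in all 6 mice (no predicted models), the 4 members of each role list with the highest mean CPM, the 5 steadiest and 5 most variable members with a mean of at least 20 CPM, the members beside a split, and the first and last member. One gene that the rule names and one allele of the model are not reported here. The isoform tables were not used.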

Additional observations from a re-analysis of the deposited data

Results flagged for a closer look

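Values that lay far from the rest of their group, as a gap to the nearest line that is large against the range of the group, numbered 23 of 162 groups of values examined. Chance gives about 1 in 20 where genes are not picked by their values, and the members are not independent of each other. Many of the genes were named for their fold change or variability in these same data, so the number shows no excess over chance. Most of the 23 values came from T69a among the 7 tumor lines. Its chromosome 3 median was -0.14, the lowest, where the other 6 tumor lines form the reference and so lie near 0. It was the lowest tumor line for Pex2 (32.0 CPM), Zfp704 (1.18), Fabp5 (201), Ect2 (100.3), Zmat3 (7.47), Mfn1 (35.1), Mbnl1 (127), Bche (1.82), Fam198b (0.137), Setdb1 (42.4), Inka2 (0.980), Psrc1 (8.22), Ddit4l (2.12), Ddah1 (8.61) and Fubp1 (117), all in CPM. It was the highest for Tm4sf4 (427), Shc1 (247) and Arhgap29 (56.7). Tm4sf4, a membrane protein of epithelia, had 264 to 483 CPM in the metastasis lines of mouse 6 and 7.20 to 106 CPM in those of the other mice. Among the 9 metastasis lines, M10 was the highest for Rps3a1 (1664 CPM), Rpl34 (369 CPM), Gstm1 (223 CPM) and Gclm (213 CPM). In T23, the tumor line of the same mouse, these had 865, 199, 190 and 122 CPM.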

How the results depend on the processing

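The count of members higher in metastasis lines was 79, and that of lower ones 32. Without the replicate block, that is with no pairing by mouse, they were 73 and 24. They were 49 and 58 with chromosome medians set equal, 22 and 19 without M15 and T6, 131 and 41 with DESeq2, and 20 and 25 with limma on log2(TPM + 1). With a minimum mean of 10 CPM, 21 were lower. With 1 line left out in turn, 40 to 115 were higher and 20 to 42 lower. Both lowest counts came without T34, the only tumor line of mouse 5, which takes that mouse out of the stage contrast. The highest count of higher members came without T69b and that of lower members without T69a. Members that differed between mice numbered 0 as reported, 13 with no count filter, 1 with chromosome medians equal, 1 with a minimum mean of 1 CPM, 85 with DESeq2, 2 with limma, and 0 to 15 with 1 line left out (15 without T69b). The mean chromosome 3 median of metastasis lines was 0.15 and ran from 0.09 to 0.19 with 1 line left out, lowest without M10. It was -0.09 without centring, where M15 was at -1.74. Lines shifted over the whole chromosome numbered 2, and 1 with 15 blocks. Of the other values over single genes and lines, 1986 kept direction and side of the threshold, 108 lost the call, 27 gained it and 7 medians moved by more than the replicate spread. No fold change of a named gene turned its sign while called. Fewer counts limit M15 most, whose median member had 280.5.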
